A study of Mus musculus with 15 samples.

Results

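The 9 genes described here encode the catalytic subunit of RNA polymerase II (RNAPII) and the kinases, cyclins and inhibitors that act on its tail. They were chosen by name: Polr2a, the TFIIH kinase genes Cdk7, Ccnh and Mnat1, the P-TEFb genes Cdk9, Ccnt1 and Ccnt2, and the 7SK genes Hexim1 and Larp7. They are 9 of 22219 protein-coding gene symbols in the annotation (GENCODE vM1 on mm9, the build of the files). All 9 were matched by symbol.

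RNAPII carries a long repetitive C-terminal domain whose phosphorylation marks the stages of transcription. CDK7, with cyclin H and the assembly factor MAT1 (Mnat1), is the kinase of the general factor TFIIH and acts at initiation. RNAPII then often pauses a short way into the gene, and P-TEFb, made of CDK9 and cyclin T1 or T2, releases it into elongation. Much of P-TEFb is held inactive by the 7SK RNA, which LARP7 stabilises and on which HEXIM1 blocks the kinase.

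Chromatin immunoprecipitation with sequencing (ChIP-seq) was used in 3T9-MycER cells, a mouse fibroblast line from E13.5 embryos that is homozygous for a floxed c-myc allele and was infected with MycER, a fusion of Myc to a hormone-binding domain that 4-hydroxytamoxifen (OHT) activates. For Myc the antibody was N262 and for RNAPII N20, each used on 1 library at 0, 10, 20 and 30 min and at 2 and 4 h of 400 nM OHT. Miz1, a zinc finger protein that binds Myc and is encoded by Zbtb17, was mapped with antibody 10E2 in 1 library of the same fibroblasts without OHT and in 1 library of B cells, enriched with B220 beads from the spleen of wild-type C57BL/6 mice of 6 to 8 weeks. The 0 min cells carry MycER too, and the peaks do not tell endogenous Myc from MycER. No group has a replicate, so no difference below has a replicate check and none was tested.

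The Myc libraries held 28132063 to 33431447 tags, and the RNAPII libraries 15276996 at 0 min to 36396286 at 20 min, so the 20 min RNAPII library was the deepest. The Miz1 libraries held 10164509 tags in fibroblasts and 24237295 in B cells. An RNAPII promoter peak at 0 min was present at 8 of 10 fibroblast marker genes, at 0 of 10 B cell markers and at 1 of 8 markers of T cells or myeloid cells, which was Cd14. The B cell sample has a Miz1 list alone, so its label could not be checked in this way.

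A gene was called bound when a peak overlapped the 1000 bp either side of a transcription start site (TSS) of one of its protein-coding transcripts. The fold enrichment of a peak over its control is the authors' own value, and it was used to rank bound genes within 1 list, so that "top 5%" means that 5% of bound genes ranked as high or higher. Lists of 6 values in a row follow the order 0, 10, 20 and 30 min, 2 h and 4 h. Values of different lists stand side by side as a description, and a difference in fold or rank between lists is not a measured change in binding. Gene-body cover counts the bases from 1000 bp after the TSS to the end of the gene and gives the percent of them under RNAPII peaks. RNAPII peaks came in narrow lists, made with the peak caller MACS 1.4.2, and in broad lists, made with MACS 2.0.9 under other settings. The peaks of the broad lists were the shorter, with a median of 823.5 bp at 0 min beside 2616 bp. Broad cover is therefore not cover by wider domains.

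All 9 genes had a Myc promoter peak in all 6 lists, where 43.3% of all protein-coding genes did. Among the 10544 genes with a narrow RNAPII promoter peak at 0 min, 87.7% had Myc at all 6 times, so this count is close to that of RNAPII-bound genes. The strengths were far apart: Cdk7 ranked with the strongest Myc promoters of the genome, while Mnat1, Hexim1 and Ccnt1 ranked below the middle at 0 min. The median fold of the 9 genes was 16.67 at 0 min, beside 12.9 over all bound genes, and 23.1 at 4 h, beside 18.34. In both of those lists 6 of the 9 genes lay above the median of all bound genes.

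All 9 genes also had an RNAPII promoter peak at all 6 times, narrow (43.5% of all genes) and broad (41.3%). Polr2a had the strongest and Mnat1 the weakest of the 9 narrow peaks in each list. Polr2a and Hexim1 were the 2 genes with a Miz1 promoter peak, in fibroblasts (8.25% of all genes) and in B cells (5.48%).

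**Figure D1:**
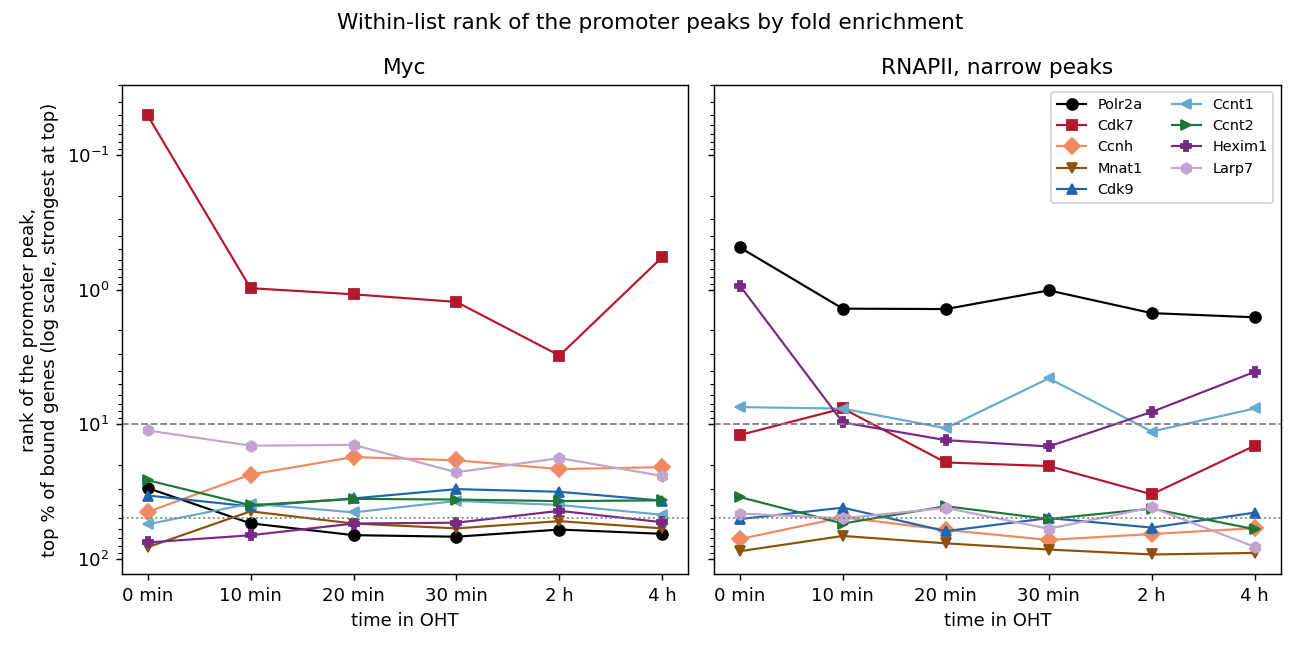
Rank of each gene's promoter peak by fold enrichment within its list, as the top percent of bound genes on a log axis with the strongest at the top, for Myc (left) and narrow RNAPII peaks (right) at 6 times. Each point is 1 library, the dashed line marks 10% and the dotted line 50%. Cdk7 stands apart for Myc, at 0.0504% to 3.08%, and Polr2a stands highest for RNAPII, at 0.484% to 1.6%.

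Polr2a encodes RPB1, the largest subunit of RNAPII and the one that carries the C-terminal domain. The gene lies at chr11:69547499-69572139 on the minus strand and has 2 coding TSSs 414 bp apart. The fold of its Myc promoter peak was 17.86, 17.2, 15.43, 12.86, 19.37 and 14.19 over the 6 times in order. It stood in the top 29.7% of bound genes at 0 min and between 54.4% and 68.4% in the 5 later lists, so it was above the middle in the 0 min list alone. The Myc summit was not fixed: it lay 120 bp upstream of the nearest TSS at 0 min, 848 bp upstream at 10 min and 32 to 102 bp downstream in the other 4 lists. A second, weaker Myc peak lay inside the gene, 3245 to 3330 bp downstream of the nearest TSS, with a fold of 7.93 to 9.07. It was listed at every time but 30 min.

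RNAPII at the Polr2a promoter was among the strongest of all genes. The narrow peak had a fold of 138.64, 90.35, 78.88, 112.41, 86.23 and 100.42 over the 6 times in order. Its rank was 51 of 10544 bound genes at 0 min and 166 of 10393 at 4 h, its lowest. The summit stayed within 35 bp of a TSS in all 6 lists. Thus the gene of the polymerase subunit was strongly occupied by RNAPII while its Myc peak was of middle strength.

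The cover of the Polr2a body by narrow RNAPII peaks was 51.01%, 53.96%, 65.92%, 36.63%, 25.3% and 20.58% over the 6 times in order. The 3 later values lay below the 3 earlier ones, and the highest came from the deepest library. Cover was also taken over the 9739 genes of at least 3000 bp with a narrow RNAPII promoter peak at 0 min. Their mean was 21.4% in the 0 min list, 32.89% in the 20 min list and 22.59% in the 4 h list. Their median was 4.59%, 12.18% and 4.92% in the same lists. Polr2a thus stood above the mean at 0 min and under it at 4 h, and above the median at both times. The 0 min and 4 h libraries held 15276996 and 16268203 tags. A peak over the 3′ end of the gene, with its summit past the annotated end, was listed at every time up to 2 h and was not listed at 4 h. Without peaks whose summit lies over 1 kb outside the gene, the cover was 49.02%, 47.5%, 8.61%, 30.02%, 24.56% and 20.58%, so the 20 min value rests on that 3′ peak, which was 16922 bp long there. The upstream edge of the promoter peak ran 506 to 746 bp into the end of the neighbouring gene Amac1. Broad peaks covered 0.01% of the Polr2a body at 0 min and 0.87% at 4 h, so the lower value at 4 h was in the narrow calling alone.

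Cdk7 encodes the kinase of TFIIH, which also activates other cyclin-dependent kinases. The gene lies at chr13:101466982-101500897 on the minus strand. The fold of its Myc peak was 80.97, 84.48, 86.7, 75.72, 77.29 and 89.53 over the 6 times in order. Cdk7 was the only one of the 9 genes in the top 10% of Myc-bound genes at 4 h. It ranked 5 of 9929 bound genes at 0 min, 59 of 10378 at 4 h and 334 of 10857 at 2 h, its lowest. The summit was at nearly the same place in every list, 98 to 120 bp upstream of the TSS and within 22 bp.

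Ccnh encodes cyclin H, the partner that CDK7 needs for activity, and lies at chr13:85329013-85363074 on the plus strand. Its Myc fold was 13.91, 30.73, 40.61, 33.74, 40.57 and 32.58 over the 6 times in order. The gene stood in the top 44.8% at 0 min and between 17.5% and 23.6% later, so the 0 min list placed it lowest. Its summits lay within 12 bp of a TSS.

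Cdk7 and Ccnh were the 2 genes of the 9 with CACGTG, the canonical E-box that Myc recognises with its partner Max, within 100 bp of the Myc summit at 4 h. Of 9164 Myc promoter peaks in that list, 17.7% held it in the same window. The related motif CACGCG, searched on both strands (CGCGTG on the other), was within 100 bp of the summit at 3 genes (Ccnh, Hexim1 and Larp7), and 22.0% of the promoter peaks held it. With the summits of the other lists this count was higher, 4 genes at 10 min and 5 at 0, 20 and 30 min and 2 h. Ccnt2 was added in all of these and Cdk9 in all but 10 min. In these lists 21.8% to 23.0% of the promoter peaks held CACGCG in the same window. The letters around these sites are shown because they place the motif next to the summit. They are the plus strand of mm9 with the motif in capitals, at chr13:101500980-101501009 for Cdk7, chr13:85328992-85329021 and chr13:85329012-85329041 for Ccnh, chr11:102976627-102976656 for Hexim1, and chr3:127256281-127256310 for Larp7.
Cdk7: cttccccgctgcCACGTGcacacagtaccc
Ccnh, upstream site: agcagacgctggCACGTGaccgggacgtca
Ccnh, downstream site: cgggacgtcacgCACGCGtccgcggtctgg
Hexim1: cttcctcctcacCACGCGcttcccatccgg
Larp7: gggggcgggagcCACGCGgtgactgcgctg

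In Cdk7 the motif starts 11 bp from the 4 h summit and lies 95 bp upstream of the TSS, between annotated transcripts. In Ccnh the E-box lies 9 bp upstream of the TSS and the second motif starts 1 bp from the 4 h summit, in the 5′ UTR. The Hexim1 motif starts 11 bp from the summit, and the Larp7 motif shown 76 bp from it, with a second CACGCG of Larp7 95 bp from it. No CACGTG lay within 250 bp of the summit at the other 7 genes, which says only that these letters are not in that window.

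The third gene of the TFIIH kinase, Mnat1, encodes the factor that holds CDK7 and cyclin H together and lies at chr12:74224704-74374975 on the plus strand. Its Myc promoter peak was the weakest of the 9 at 0 min, with a fold of 7.99 there and of 20.3, 19.08, 15.09, 22.23 and 15.67 at the later times in order. It stood in the top 81.9% at 0 min and between 44.3% and 59.3% in the later lists. Further Myc peaks lay inside this long gene. One lay 23717 to 23819 bp and another 78063 to 78170 bp downstream of the TSS, each in all 6 lists. At 0 min their folds were 17.77 and 16.51, both above that of the promoter, and at 4 h they were 17.26 and 12.45.

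**Figure D2:**
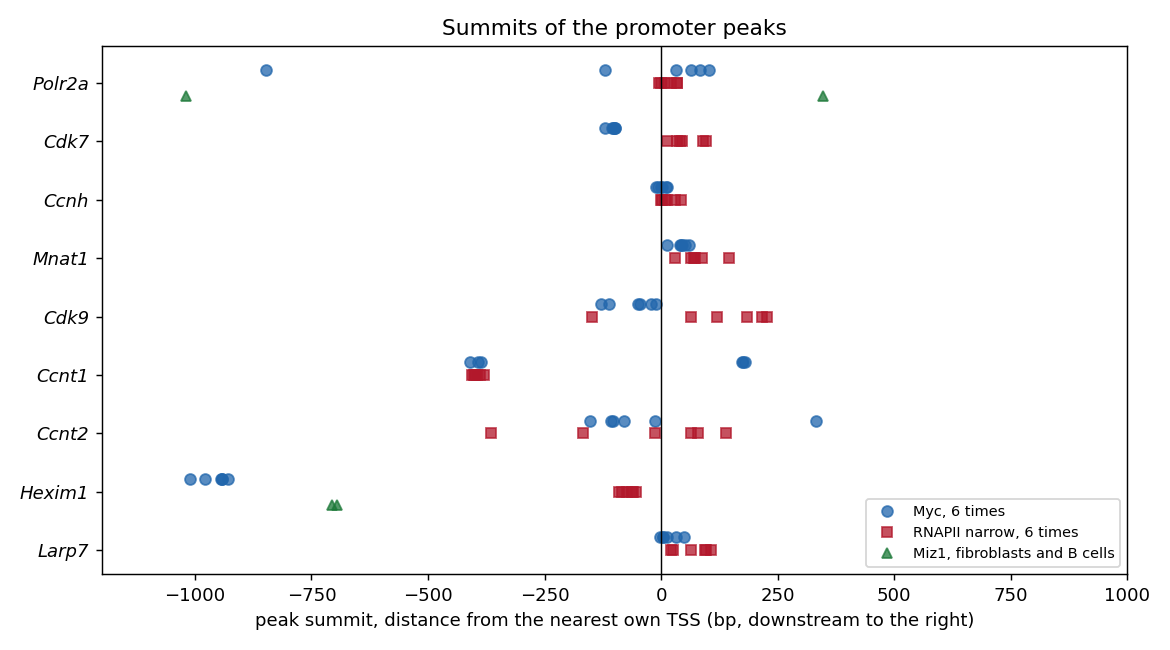
Position of the promoter peak summits relative to the nearest TSS of each gene, in bp, with 1 point per list: Myc (circles) and narrow RNAPII (squares) at 6 times, and Miz1 (triangles) in fibroblasts and B cells. The Cdk7 Myc summits fall within 22 bp, while those of Polr2a run from 848 bp upstream to 102 bp downstream, and the Hexim1 Myc summits lie 930 to 1011 bp upstream.

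RNAPII differed among the 3 TFIIH kinase genes. The narrow promoter peak of Cdk7 had a fold of 56.83, 59.12, 45.39, 47.67, 29.8 and 49.2 over the 6 times in order, and ranked in the top 7.62% to 33.1%. That of Ccnh had folds of 18.14 to 27.23 and stood in the top 49.1% to 72.3%. That of Mnat1 had folds of 8.65 to 19.81 and stood in the top 67.5% to 92.7%. The order Cdk7, Ccnh, Mnat1 held in each of the 6 narrow lists, the same as that of their Myc peaks. In the broad list of 30 min Ccnh (24.1) stood just above Cdk7 (23.81).

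Narrow RNAPII peaks covered 81.76%, 68.73%, 95.28%, 67.83%, 61.9% and 44.6% of the Cdk7 body over the 6 times in order. The 4 h value was the lowest and the 20 min value, from the deepest library, the highest. The promoter peak itself reached 5844 bp downstream of the TSS at 0 min, 8189 bp at 10 min, 11488 bp at 20 min, 10899 bp at 30 min, 4190 bp at 2 h and 1898 bp at 4 h. It was thus longest at 20 and 30 min. The 20 min library was the deepest and the 30 min library held 16274905 tags, and the part of depth in these lengths was not tested. Broad peaks covered 3.94% of the Cdk7 body at 0 min and 0.0% at 4 h.

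Ccnh had a cover of 6.78%, 33.31%, 55.89%, 26.26%, 31.95% and 19.85% over the 6 times in order, with the 0 min value below all the others. The last 8771 bp of the gene overlap Rasa1, which is read from the opposite strand, and RNAPII ChIP does not tell the strands apart. In the part before that overlap the cover was 9.23%, 36.11%, 44.75%, 27.78%, 31.76% and 15.89%, again with the 0 min value the lowest. The body of Mnat1 was bare at every time, with 0.19% or less.

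Cdk9 encodes the kinase of P-TEFb and lies at chr2:32562958-32568304 on the minus strand. Its Myc fold was 16.67, 21.62, 26.89, 25.21, 32.32 and 23.1 over the 6 times in order, in the top 30.3% to 40.7% of bound genes. Ccnt2, one of its cyclins (chr1:129670741-129704638, plus strand), had 19.03, 21.94, 26.75, 22.5, 29.21 and 23.19 in the same order of times, in the top 26.0% to 39.9%. Both genes thus kept a place above the middle of each list.

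Ccnt1, the other cyclin gene (chr15:98369120-98401354, minus strand), had a Myc fold of 11.93, 22.38, 22.42, 22.14, 27.79 and 19.34 over the 6 times in order, in the top 37.1% to 55.3%. Its Myc peak had 2 summit positions. In 3 lists (0 min, 20 min and 4 h) the summit lay 386 to 410 bp upstream of the inner TSS, and in the other 3 it lay 173 to 179 bp downstream. The outer annotated TSS is 3287 bp further upstream, and 4930415O20Rik starts 98 bp beyond it on the opposite strand.

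The narrow RNAPII promoter peak of Ccnt1 had a fold of 65.92, 59.06, 54.08, 78.2, 45.45 and 60.13 over the 6 times in order, in the top 4.55% to 11.3%. Those of Ccnt2 and Cdk9 were of middle strength, with folds of 23.66 to 36.67 and of 20.42 to 30.48. The P-TEFb cyclin Ccnt1 was therefore the most strongly occupied of these 3 genes in every list. The same promoter peak of Ccnt1 covers a noncoding transcript on the opposite strand, 9330020H09Rik. It also overlaps the start of the protein-coding gene 4930415O20Rik by 759 to 1166 bp. The RNAPII of this peak cannot be assigned to 1 of these genes.

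Cdk9 is short, and narrow RNAPII peaks covered 93.08% of its body at 0 min and 100.0% at each later time. At 0 min its promoter peak was 5825 bp long and a separate peak followed it after a gap of 301 bp, so that both together span 11664 bp. That separate peak lay at chr2:32557716-32563253, so it too ran past the end of Cdk9 and over Fpgs (chr2:32542369-32559657). From 10 min on there was 1 peak of 11526 to 14237 bp, which ran 5588 to 8014 bp past the end of Cdk9 and overlapped the next gene on the same strand, Fpgs, by 2288 to 4714 bp. The broad calls covered 5.48%, 36.48%, 59.97%, 21.46%, 36.6% and 0.0% of the Cdk9 body over the 6 times in order. Broad cover was thus lowest in the first and last lists, which are also among the shallower libraries, and the part of depth in this was not tested.

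Narrow cover of Ccnt1 was 72.37%, 97.54%, 99.82%, 90.84%, 88.6% and 79.7% over the 6 times in order. Much of its 3′ part lay under a peak of 28292 bp at 0 min whose summit is next to the start of the downstream gene 2310037I24Rik. Counting the peaks with a summit in or within 1 kb of Ccnt1 alone, its cover was 59.45%, 49.26%, 29.32%, 41.92%, 40.52% and 66.88%, so the 4 values from 10 min to 2 h then lay below that of 0 min. Ccnt2 had little cover, with 10.02%, 7.89%, 24.23%, 7.02%, 6.32% and 1.95%. A peak at or near its 3′ end was listed at every time up to 2 h and was not listed at 4 h. Counting the peaks with a summit in or within 1 kb of Ccnt2 alone, its cover was 10.02%, 7.89%, 17.45%, 1.64%, 1.9% and 1.95%. The 4 h value was then not the lowest.

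**Figure D3:**
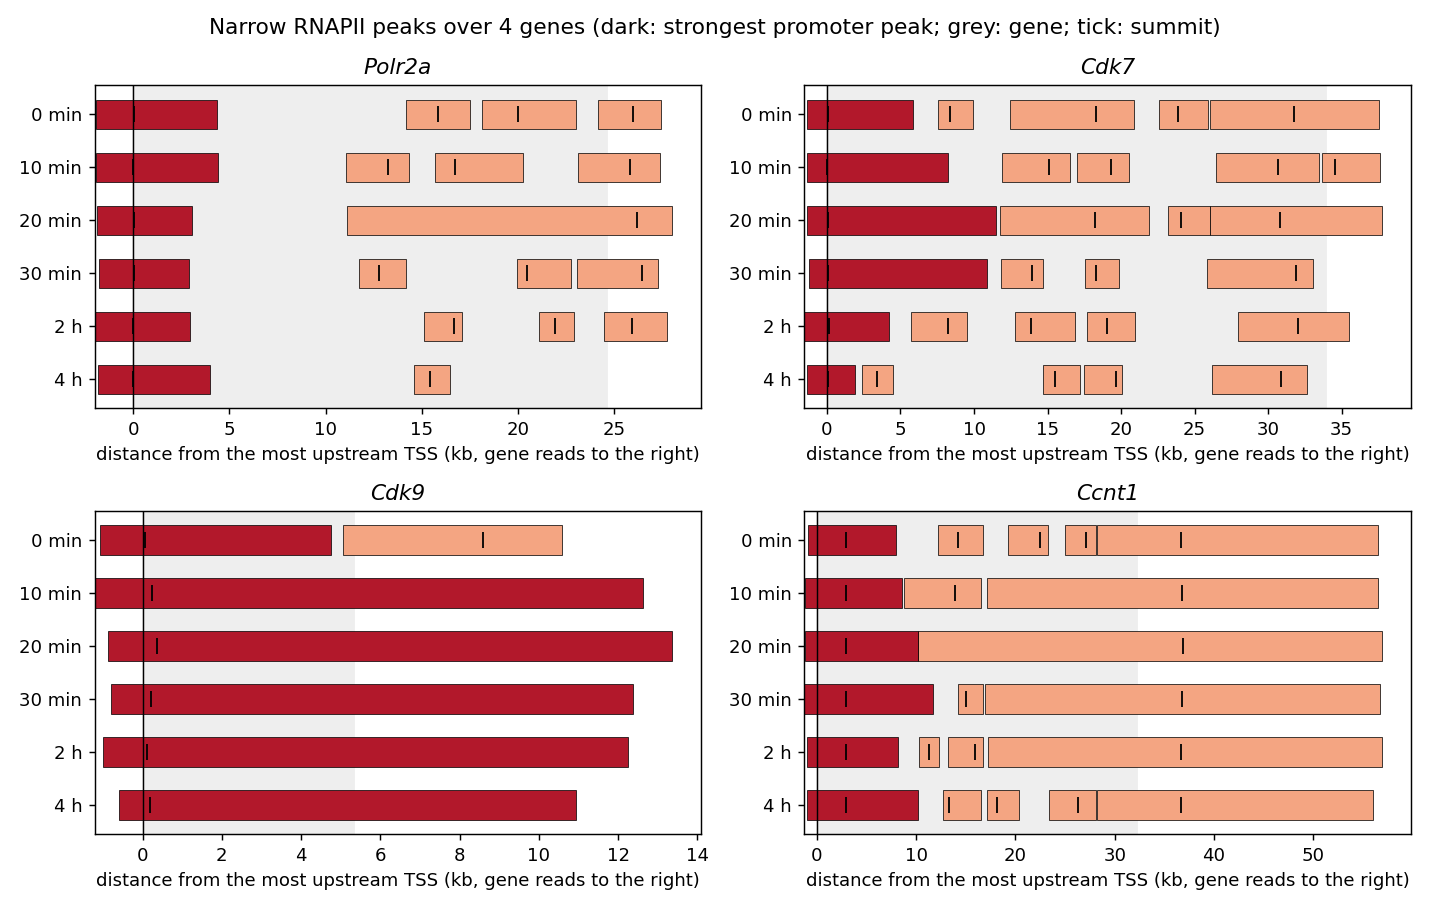
Narrow RNAPII peaks over Polr2a, Cdk7, Cdk9 and Ccnt1 at 6 times, by distance from the most upstream TSS in kb, with the gene reading to the right. Each bar is 1 peak with its summit as a tick, the dark bar is the strongest promoter peak and the grey area is the gene. The 2 Cdk9 peaks of 0 min span 11664 bp with a gap of 301 bp, the single peak of 4 h spans 11526 bp, and the 3′ part of Ccnt1 lies under a peak whose summit is beyond the gene.

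Hexim1 encodes the 7SK-dependent inhibitor of P-TEFb, and it lies at chr11:102977639-102981039 on the plus strand. Its Myc fold was 8.91, 13.91, 19.08, 16.46, 25.69 and 17.41 over the 6 times in order, in the top 43.9% to 75.5%, with 0 min the lowest place. The Myc summit was 930 to 1011 bp upstream of the TSS, farther than any Myc promoter summit of the other 8 genes. The RNAPII summit lay 53 to 90 bp upstream of the TSS, so the strongest points of the Myc and RNAPII peaks were apart.

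The narrow RNAPII promoter peak of Hexim1 had a fold of 121.45, 54.76, 50.86, 53.74, 50.95 and 74.05 over the 6 times in order. It ranked 98 of 10544 at 0 min, 423 of 10393 at 4 h and 1505 of 10316 at 30 min, so among the narrow lists it ranked higher at 0 min and 4 h than at 30 min. In the broad lists it ranked 162, 147, 305, 859, 105 and 381 over the 6 times in order, highest at 2 h. Narrow peaks covered 82.47% to 100.0% of this short gene, and broad peaks 35.94%, 26.61%, 35.24%, 31.2%, 62.39% and 55.31% over the 6 times in order. Broad cover was higher at 2 h and 4 h than at the 4 earlier times.

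Larp7 encodes the protein that protects 7SK RNA, and it lies at chr3:127239872-127256266 on the minus strand. Its Myc fold was 28.31, 40.0, 44.89, 30.04, 44.78 and 29.95 over the 6 times in order. After Cdk7 it was the strongest at 0 min, in the top 11.1%, and it stood in the top 24.2% at 4 h. The promoter is shared: 4930422G04Rik starts 141 bp away on the opposite strand, and its window overlaps the same Myc and RNAPII peaks. The RNAPII fold was 31.26, 26.88, 32.66, 25.48, 26.33 and 15.2 over the 6 times in order, with the 4 h value the lowest, in the top 81.4%. In the broad list of 4 h the fold was 24.68, in the top 47.7%, so the low place at 4 h is not in both callings. Narrow cover of the body was 1.54% to 3.35%.

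Miz1 was at the promoters of Hexim1 and Polr2a in both lists, where 2.43% of all genes had it in both. Of the genes whose promoter held RNAPII at 0 min in fibroblasts, 16.1% had Miz1 in fibroblasts and 10.3% in B cells. At Hexim1 the fold was 13.76 in fibroblasts and 19.12 in B cells, with a −log10 p of 40.64 and 76.56. The summits lay 707 and 695 bp upstream of the TSS, so the cell types shared the site, and both lie under the Myc peak of the gene.

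At Polr2a the Miz1 peaks were at different places. In fibroblasts the summit lay 1019 bp upstream, with a fold of 10.43 and a −log10 p of 10.74. In B cells it lay 348 bp downstream, in an intron, with a fold of 5.97 and a −log10 p of 10.91. The Polr2a calls therefore count as bound in both cell types without sharing a site. With a window of 500 bp, or with the summit required inside the window, only Hexim1 was counted in fibroblasts, and in B cells the Polr2a peak was not among those above the median fold of its list. The other 7 genes had no Miz1 promoter peak in either list, and Ccnt2 had an intronic peak 8641 bp downstream of its TSS in fibroblasts, with a fold of 3.7 and a −log10 p of 3.12.

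The sequence around the shared Hexim1 site is shown because it is the site found in both cell types. It is the plus strand of mm9 at chr11:102976882-102976982, centred on the fibroblast summit, between annotated transcripts. The motif CACGTG was not within 250 bp of this summit, and neither was CACGCG. The palindrome ATCGAT, searched on both strands, was also not in that window. It was there at 3.52% of the fibroblast Miz1 promoter peaks.
Hexim1, Miz1: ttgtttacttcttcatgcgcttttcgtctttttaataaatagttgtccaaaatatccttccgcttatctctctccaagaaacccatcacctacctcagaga

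Across the 9 genes, narrow cover was over 20 points lower at 4 h than at 0 min in 2, Polr2a (−30.43 points) and Cdk7 (−37.16). Of the 9739 genes with a narrow RNAPII promoter peak at 0 min, 4.89% were. Their median cover at 0 min was 4.59%, so most of them could not fall by over 20 points. This share is thus not a like background for Polr2a (51.01%) and Cdk7 (81.76%). Of the 9, Ccnh, Mnat1, Ccnt2 and Larp7 also began under 20%. None of the 9 was over 20 points higher at 4 h, where 7.33% of genes were. Cdk7, Cdk9 (93.08%) and Hexim1 (100.0%) began too high to rise by that much. At 30 min none was over 20 points higher (9.3% of genes) or lower (3.97%). At 10 min Ccnh and Ccnt1 were over 20 points higher (13.0% of genes) and none lower (1.77%), and the same holds for 20 min (22.2% and 2.06%). For Ccnt1 the direction turns at both times when peaks with a summit over 1 kb outside the gene are left out, as given above. At 2 h Ccnh was over 20 points higher (10.5%) and Polr2a over 20 points lower (3.47%). The mean narrow cover of the 9 genes was 46.45% at 0 min and 40.69% at 4 h, beside 21.4% and 22.59% over the 9739 genes. The medians were 51.01% and 20.58%, beside 4.59% and 4.92%.

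In the broad lists no gene of the 9 was over 20 points higher at 30 min or at 4 h. Of the 9154 genes with a broad RNAPII promoter peak at 0 min, 3.06% and 2.34% were. Hexim1 was 19.37 points higher at 4 h, just under that limit, and Cdk9 15.99 points higher at 30 min. At 2 h, Cdk9 was 31.12 and Hexim1 26.45 points higher, the only ones over the limit (3.64%). Cdk9 was also over it at 10 min (3.9%) and 20 min (10.9%). None was over 20 points lower at any time, where 0.317% of genes were at 10 min, 0.12% at 20 min, 0.918% at 30 min, 0.59% at 2 h and 1.09% at 4 h. Among the 9, only Hexim1 (35.94%) had enough broad cover at 0 min to fall that far. The next highest was Ccnt1 (8.89%), so for all but Hexim1 this outcome was fixed by the low start. Apart from Cdk9 and Hexim1, the 7 genes had 15.78% broad cover or less at every time, and Mnat1, Ccnt2 and Larp7 had none at any.

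**Figure D4:**
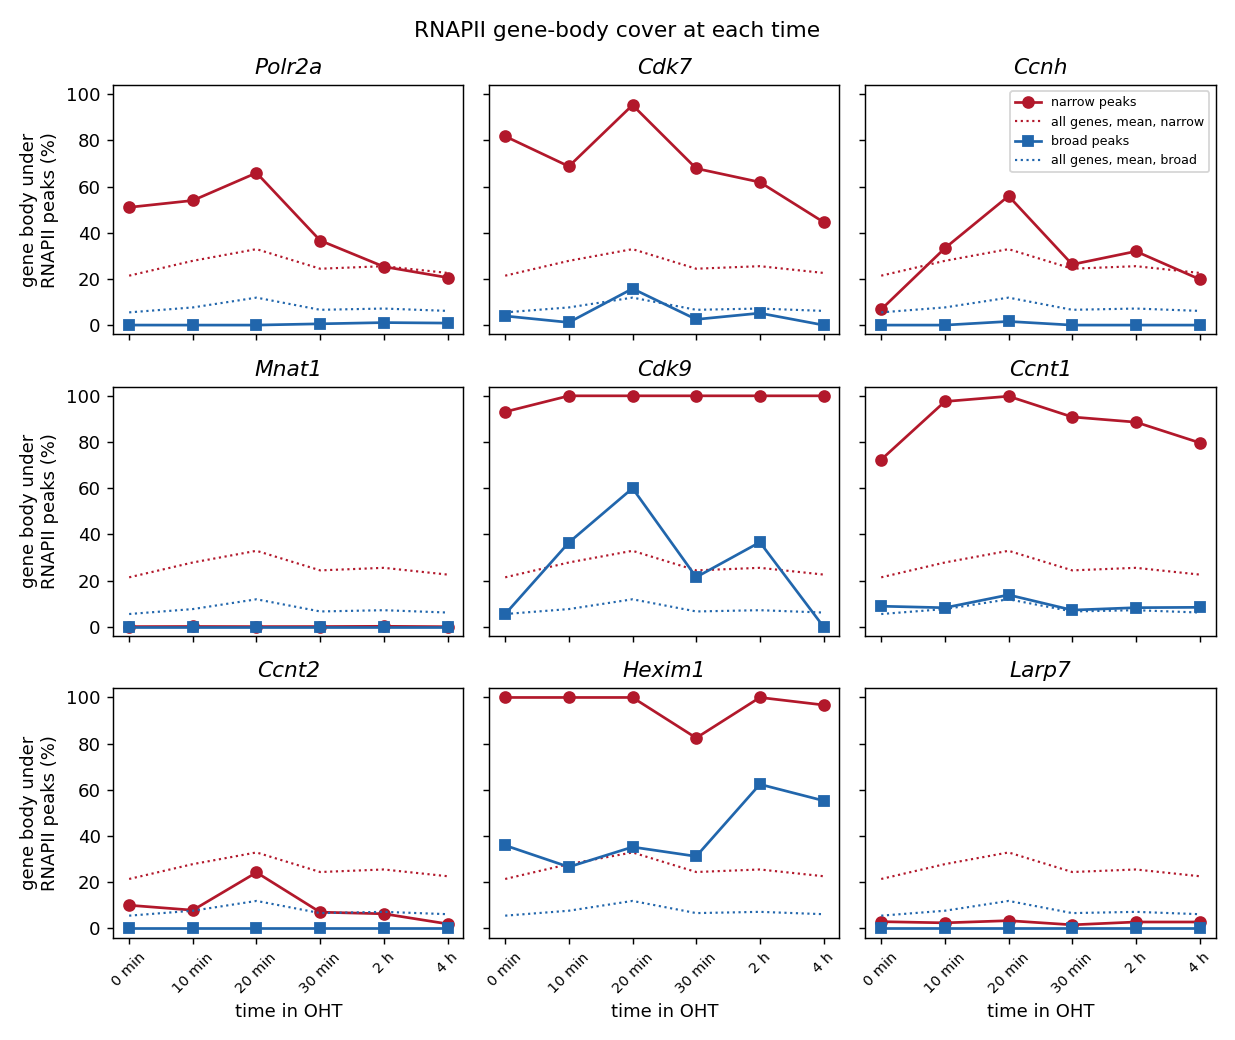
Percent of the gene body under RNAPII peaks at 6 times for each of the 9 genes, from narrow peaks (circles) and broad peaks (squares), with the mean over all measured genes as dotted lines. Each point is 1 library. By narrow peaks, Polr2a goes from 51.01% at 0 min to 20.58% at 4 h and Cdk7 from 81.76% to 44.6%. By broad peaks, Polr2a goes from 0.01% to 0.87% and Cdk7 from 3.94% to 0.0%. Mnat1 and Larp7 stay under 4% at all times.

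For each of the 9 genes, the gene with the most similar places in the 12 Myc and narrow RNAPII lists was found, by the mean absolute difference of the percentile among bound genes. They were Ier5 for Polr2a (2.89 points), Ran for Cdk7 (3.3), Gtpbp10 for Ccnh (4.74), Sepsecs for Mnat1 (4.88) and Wapal for Cdk9 (3.9). For the others they were Gm20422 for Ccnt1 (3.33), Traf4 for Ccnt2 (3.94), Rpap1 for Hexim1 (4.51) and Ccdc9 for Larp7 (4.59). The 12 lists come from 12 libraries of the same cells and are not independent of each other.

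The other genes of the pathway were a list of 57, of which 53 had Myc and 55 a narrow RNAPII promoter peak at all 6 times. Of all genes 43.3% and 43.5% did, and Myc was at all 6 times at 87.7% of the genes with RNAPII at 0 min, which the 57 are close to. Polr2c and Rtf1 had Myc at 5 of the 6 times, missing at 0 min, and Ell3 and Ccnk had none. Ccnk, the cyclin of CDK12 and CDK13, also lacked an RNAPII promoter peak, and the number of lists with a peak was 0 of 6 for both also with the TSSs of all its transcripts. Narrow RNAPII peaks covered 0.0% of its body at 0 min, 61.86% at 30 min and 41.25% at 4 h, so its call without a promoter peak covers the annotated starts alone. Cdc73, of the PAF complex, had a narrow RNAPII promoter peak at 3 of 6 times.

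Within each role, the gene with the highest Myc fold at 4 h was named. It was Polr2l (116.17) of the other RNAPII subunits, Gtf2h1 (50.92) of the TFIIH core, Cobra1, now Nelfb (21.45), of NELF and DSIF, and Mepce (37.77), which caps 7SK RNA. The others were Cdk8 (68.11) of the other transcription kinases and cyclins, Supt16h (37.73) of the PAF, SPT6 and FACT group, Gtf2f2 (48.81) of TFIIF and TFIIS and Ssu72 (33.57) of the CTD phosphatases. The Polr2l peak only reaches into the promoter window: its 4 h summit lay 1220 bp from the TSS, and its Myc summit was inside the window in 0 of the 6 lists. The summits of the other 7 genes lay inside it in all 6.

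Miz1 was at 10 of the 57 promoters in fibroblasts and 12 in B cells, beside 16.1% and 10.3% of the genes with RNAPII at 0 min and 8.25% and 5.48% of all genes. In fibroblasts it was highest at Ercc2, a helicase of the TFIIH core (217.49-fold, and 88.41-fold in B cells), and at Tcea1, the elongation factor TFIIS (102.04-fold and 62.77-fold). In both lists it was also at the Hexim1 paralogue Hexim2 (23.83-fold and 46.91-fold), which starts 16104 bp downstream of Hexim1. The other genes in fibroblasts were Polr2b, Gtf2h1, Gtf2h2, Rdbp (Nelfe), Aff4, Mllt3 and Cdk12, with folds of 5.21 to 10.83. In B cells the other genes were Cobra1, Supt4h1, Supt5h, Aff1 (59.53-fold), Eaf1, Cdk8 (26.75-fold), Ccnc, Ctr9 and Ssrp1.

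Narrow cover could be measured at 55 of the 57 genes. Against 0 min, the 30 min value was over 20 points higher in 10 of them and lower in 2, and the 4 h value higher in 4 and lower in 2. Over the 9739 genes with a narrow RNAPII promoter peak at 0 min the shares were 9.3% and 3.97% at 30 min and 7.33% and 4.89% at 4 h. The 55 include Ccnk and Cdc73, which had no such peak at 0 min, and the 4 h counts are near this background. A gene that began under 20% at 0 min could not be counted as lower. Beside these pathway genes, Polr2a and Cdk7 were the lower genes at 4 h among the 9.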

How the data were processed

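ChIP-seq peak lists of 14 of 15 mouse samples were used, 20 lists in all; the input library entered only as the control of the authors' calls. The submitters' processing notes name the mm9 build, BWA 0.6.2-r126 and MACS2 2.0.9. MACS 1.4.2 made the Myc and narrow RNAPII lists and MACS 2.0.9 the others, per the file headers, with a p cutoff of 1e-08 for Myc and RNAPII, 1e-02 for Miz1 in fibroblasts and 1e-05 for Miz1 in B cells. Each library was called alone. Tag counts per peak, fold (ratio to control), pileup signal, −log10 p and −log10 q, a score of −10 times log10 p, and the percent false discovery rate are the authors' deposited values and were used only within a list. A list's length also depends on its depth and cutoff.

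Computed here were the overlap of peaks with promoters (1 bp or more; 1000 bp either side of coding TSSs), ranks by fold, gene-body cover (genes of at least 3000 bp), and motif counts on the reference. Gene names, TSSs and sequences came from GENCODE vM1 and NCBIM37, which is mm9. 1 peak each in the 2 h and 4 h narrow RNAPII lists ended past a chromosome end. Python 3.11.15 with pandas 2.3.3, numpy 2.4.6 and matplotlib 3.10.9 was used; the overlap and cover steps, tested on simulated data, gave the known answer for all 22219 genes and all 200 gene bodies.

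The 9 genes and the gene lists were chosen with earlier results of these data known. Named genes are the 9, each pathway gene lacking Myc or narrow RNAPII at some time or having Miz1, the highest Myc gene per role at 4 h, and 1 most similar gene per member. Older symbols in the annotation stand for Nelfb (Cobra1), Nelfe (Rdbp) and others. No test was run, since each group has 1 library. Alternatives were other windows, TSS sets, peak cutoffs, ranks and body definitions.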

Additional observations from a re-analysis of the deposited data

How the results depend on the processing

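Of 109 alternatives to 19 counts, 97 kept the count within 1.5 times. Those that moved were few. Miz1 in fibroblasts counted 1 gene (Hexim1) instead of 2 with a 500 bp window or with the summit required inside the window, and in B cells 1 (Hexim1) with peaks above the median fold of the list. Myc at all 6 times counted 33 of the 57 pathway genes with peaks above the median fold. The share of all genes under that cut was not computed, so the 33 cannot be set beside the shares of the uncut lists. Myc motifs counted 4 genes instead of 2 when CACGCG was allowed as well. With a difference of over 10 points, narrow cover at 30 min was higher in 2 genes (Ccnh and Ccnt1) and lower in 3 (Polr2a, Cdk7 and Hexim1), narrow cover at 4 h was higher in 1 (Ccnh), and broad cover was higher in 1 at 30 min (Cdk9) and in 1 at 4 h (Hexim1). Ccnt1 at 30 min was 18.47 points higher, and −17.53 points with peaks whose summit is within 1 kb of the gene, so its direction turned. Ccnh at 4 h was 13.07 points higher, but 3.62 with the span of its longest protein-coding transcript and 5.92 with equal numbers of peaks per list. With the gene body starting 2000 bp after the TSS, Hexim1 was 1 gene lower at 30 min in narrow cover and 1 gene higher at 4 h in broad cover. The counts of genes lower, and cover from peaks with their summit within 1 kb of the gene, were added after the data had been seen, and the 2 genes lower at 4 h were Polr2a and Cdk7 in each setting with the 20 point limit. No paired analysis was possible because each group has 1 library. Cover depends on depth, which was highest at 20 min.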
